A study of Mus musculus with 2 samples.

Results

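The secreted WNT antagonists are 10 genes among 29924 gene names on the array, namely *Wif1*, *Notum*, the *Notum* opposite-strand transcript *Notumos*, *Sfrp1*, *Sfrp2*, *Sfrp4*, *Frzb*, *Dkk1*, *Dkk2* and *Dkk3*. Their probes were found by gene name, with 1 probe for each, and the list of genes was drawn up with earlier results of these arrays known. Ureters of wild-type NMRI mice were explanted on the day of birth (P0) and kept in culture for 18 h with either 5 µM IWP-2 or the solvent DMSO, diluted 1:1000. IWP-2 was itself dissolved in DMSO, and the medium of both groups contained fetal calf serum. IWP-2 blocks Porcupine, the acyltransferase that attaches the lipid without which WNT proteins are not secreted. RNA of a treated pool and a control pool was hybridized to the same two-colour array, on 2 arrays. Replicate 1 held female pools with the treated RNA in red, and replicate 2 held male pools with the treated RNA in green, so sex, dye orientation and array cannot be told apart. Each pool combined several whole ureters, and each channel was 1 pool.

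WNT proteins bind frizzled receptors and LRP coreceptors, and in the canonical pathway this stabilizes beta-catenin, which acts with TCF and LEF factors on target genes. Secreted antagonists limit the signal outside the cell by different routes. WIF1 and the secreted frizzled-related proteins bind WNTs directly, NOTUM removes the lipid from WNTs, and the DKK proteins DKK1 and DKK2 bind the LRP coreceptors. Several of these genes are also known as WNT targets in some tissues, which makes them part of a negative feedback. In the ureter, WNT signals from the epithelium act on the surrounding mesenchyme, which gives rise to the smooth muscle and to the fibrocytes of the lamina propria (LP).

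The lowest treated signals relative to control belonged to *Notumos*, a noncoding transcript whose probe lies on the strand opposite to *Notum*. In the mm9 coordinates of the array files, the *Notumos* probe is at chr11:120523011-120523070 on the plus strand and the *Notum* probe at chr11:120515209-120515268 on the minus strand, with 7742 bases between them. RefSeq gives *Notum* a span of 7406 bases (GRCm38). The distance between the probes is longer than this span. The *Notumos* probe is shown because its sequence, strand and position separate its signal from that of *Notum*.
Notumos probe: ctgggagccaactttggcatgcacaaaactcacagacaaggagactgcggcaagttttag
The positions of the other probes in mm9 were chr10:120537079-120537138 (plus strand) for *Wif1*, chr3:83577864-83577923 (plus strand) for *Sfrp2*, chr13:19724488-19724547 (plus strand) for *Sfrp4*, chr2:80252582-80252641 (minus strand) for *Frzb* and chr8:24559438-24559497 (plus strand) for *Sfrp1*. Those of the DKK genes were chr19:30621424-30621483 (minus strand) for *Dkk1*, chr3:131842357-131842416 (plus strand) for *Dkk2* and chr7:119259556-119259615 (minus strand) for *Dkk3*.

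Promoter windows, 250 bases upstream of the transcription start, were present in the RefSeq table (GRCm38.p6) for 5 of the 10 genes, *Wif1*, *Sfrp2*, *Frzb*, *Dkk1* and *Dkk2*. They were searched on both strands for CTTTGAT and CTTTGAA, forms of the core letters bound by TCF and LEF factors. Other forms were not searched, so a match here means only these letters. Of these windows, only that of *Dkk1* held a match, a single CTTTGAA on the strand of the gene at position -117, and 7.48% of all 32851 windows held at least 1. The windows of *Wif1* and *Dkk1* are shown because *Wif1* fell with IWP-2 and had no match, whereas *Dkk1* had the match but no detectable signal. The capitals mark the matched letters. The *Wif1* window is chr10:121033754-121034003 on the plus strand and the *Dkk1* window is chr19:30549497-30549746 on the minus strand. A match is a description of the letters in the window and does not show binding.
Wif1: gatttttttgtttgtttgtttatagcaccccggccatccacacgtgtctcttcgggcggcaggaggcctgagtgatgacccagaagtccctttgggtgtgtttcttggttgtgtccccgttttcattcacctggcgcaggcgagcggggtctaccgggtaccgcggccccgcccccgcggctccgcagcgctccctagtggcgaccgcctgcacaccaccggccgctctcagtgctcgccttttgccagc
Dkk1: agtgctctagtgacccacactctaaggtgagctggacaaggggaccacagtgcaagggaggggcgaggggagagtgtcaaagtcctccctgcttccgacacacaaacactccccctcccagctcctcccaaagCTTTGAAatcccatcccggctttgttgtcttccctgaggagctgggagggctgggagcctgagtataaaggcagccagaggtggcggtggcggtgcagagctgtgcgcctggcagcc

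Treatment with IWP-2 lowered *Wif1*, *Notum*, *Notumos* and *Sfrp2*, and none of the 9 genes tested was called higher. *Sfrp4*, *Frzb* and *Dkk3* were lower in both arrays by smaller amounts that did not pass the test, *Sfrp1* and *Dkk2* had means close to 0, and *Dkk1* was not detected. Of the 9 genes tested, limma called 4 lower and 0 higher at an adjusted p under 0.05, where 0.379% of all 23721 tested probes were called lower, 0.118% higher and 0.497% in either direction. At an unadjusted p under 0.05, limma counted 7 members lower and 0 higher, against 6.08% and 7.36% of all tested probes. The intensity filter of the study, a control signal above 100 and a change of at least 1.5-fold, has no test. Here both limits were required in each array, a detail that the study's main text does not give. Applied this way to the signals as normalized here, the filter passed *Wif1*, *Notum* and *Sfrp2*, which are 3 of the 8 members bright enough. Of the 17961 probes bright enough, 0.323% passed as lower and 0.0779% as higher. The median log2 fold change was -0.49 over the 9 members and -0.0028 over all tested probes. In 7 of the 9 the treated pool was lower in both arrays, as for 28.3% of all tested probes, and in 6 both treated signals lay below both control signals, as for 16.5%.

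**Figure D1:**
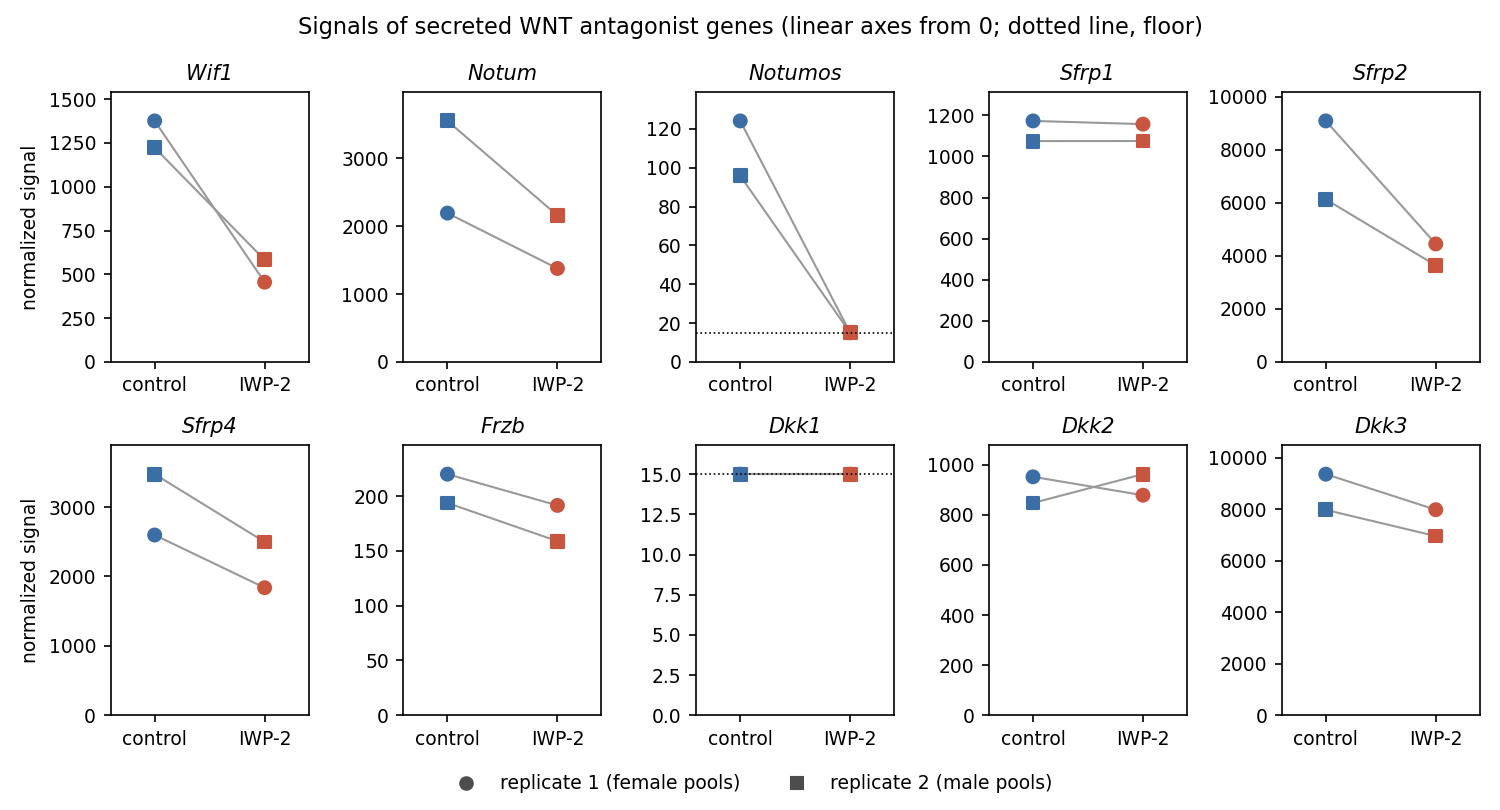
Normalized signals (linear axes from 0) of the 10 secreted WNT antagonist genes in control and IWP-2-treated ureters, with lines joining the pools of one array; circles are female pools of replicate 1 and squares male pools of replicate 2. For *Wif1*, *Notum*, *Notumos*, *Sfrp2*, *Sfrp4* and *Frzb* both treated points lie below both control points, and *Dkk1* stands at the floor of 15 throughout.

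*Wif1* encodes WNT inhibitory factor 1, which holds WNT proteins outside the cell. Its normalized signal was 1376 in the control female pool and 455 in its treated partner, against 1222 and 583 for the male pools. Both treated pools were low and both control pools high, without overlap, and the decrease was larger in the female pair. This gave a 3.02-fold lower signal in replicate 1 and 2.10-fold in replicate 2. The mean log2 fold change was -1.33 ± 0.134 (SE, n = 2 arrays), with a 95% interval from -1.67 to -0.996 and an adjusted p of 0.0414 by limma. Here and below, the SE and the interval are limma's, with a variance drawn toward that of all tested probes. They are therefore not the spread between the 2 arrays alone. The 4 spots of the probe spanned log2 ratios from -1.65 to -1.58 in replicate 1 and from -1.11 to -1.03 in replicate 2. The gap between the arrays (-0.53 on the log2 scale, replicate 1 minus replicate 2) was wider than that of 97.1% of the tested probes. The spots show the scatter within an array and not that between pools. Among all tested probes, *Wif1* had rank 21 by size of decrease.

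*Notum* encodes a secreted carboxylesterase that takes the lipid off WNT proteins, the same modification whose attachment IWP-2 blocks. Its normalized signal was 2194 in control females and 1378 in treated females, and 3553 and 2159 in the respective male pools. The treated pools were the lower ones in each pair, and the treated male pool lay just below the control female pool, so the groups did not overlap by a small margin. The decrease was 1.59-fold in replicate 1 and 1.65-fold in replicate 2, a mean log2 fold change of -0.69 ± 0.0721 (SE, n = 2 arrays; 95% interval -0.88 to -0.51; limma adjusted p = 0.0434). The ratio was thus close to the same in both arrays although the signal itself was higher in the male pools. The 2 ratios differed by 0.05 on the log2 scale, and 22.6% of the tested probes had a smaller gap.

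*Notumos* gave a normalized signal of 124 in the control female pool and 95.8 in the control male pool. In the treated pools it was 7.74 and 5.30, below the floor of 15 under which signals were not told apart. Both treated pools were low and both controls high, without overlap. In each pool, the treated ones included, more than 50% of the spots carried the image software's (Feature Extraction) mark for signals well above background. With the floor, the mean log2 fold change was -2.86 ± 0.107 (SE, n = 2 arrays; 95% interval -3.13 to -2.59; limma adjusted p = 0.00349), which ranked 8 by size of decrease among all tested probes. This size is set by the floor, and without it the signals were 16.0-fold lower in replicate 1 and 18.1-fold lower in replicate 2. As both treated signals were set to 15, the SE, interval and p hold no variation between the treated pools. As the control signal of the male pool was under 100 in the normalization used here, *Notumos* did not pass the intensity filter. The paper's own filtered list of reduced genes does include *Notumos*. The probe of *Notum*, on the other strand and 7742 bases away, was 1.62-fold lower on average.

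**Figure D2:**
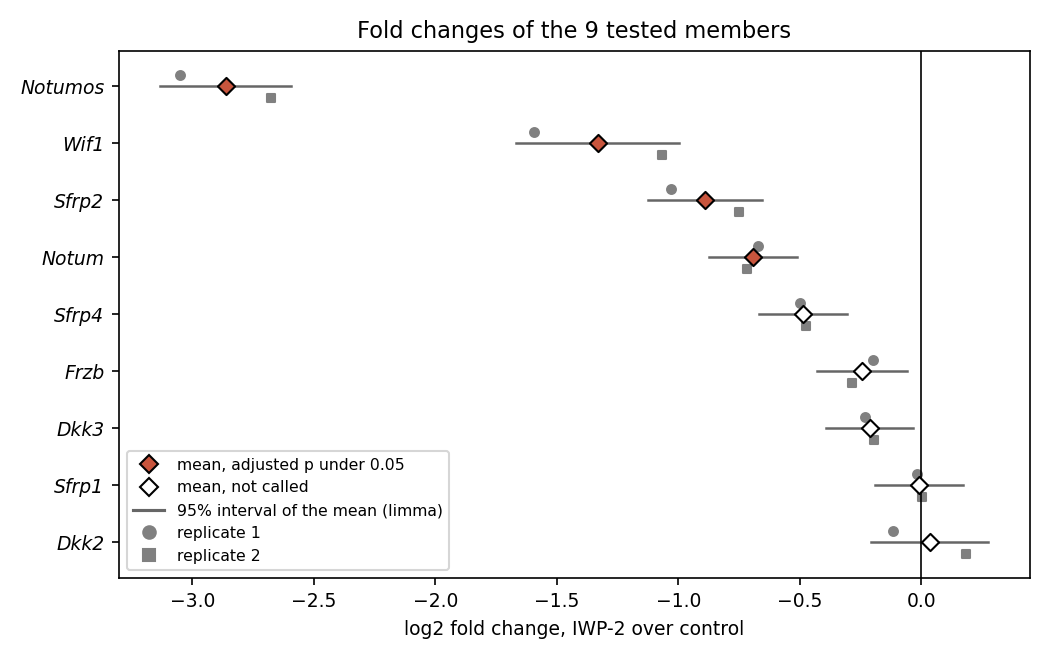
Log2 fold changes of the 9 tested secreted WNT antagonist genes, IWP-2 over control, with replicate 1 (gray circles), replicate 2 (gray squares), their mean (diamonds, filled where the limma adjusted p was under 0.05) and the limma 95% interval of the mean. The intervals of *Notumos*, *Wif1*, *Sfrp2* and *Notum* lie below -0.50, and those of *Sfrp1* and *Dkk2* include 0.

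The secreted frizzled-related proteins share a cysteine-rich domain with the frizzled receptors and bind WNTs through it. Of the 4 members of this family among the genes described here, *Sfrp2* fell, *Sfrp4* and *Frzb* (also known as *Sfrp3*) were lower in both arrays without passing the test, and *Sfrp1* showed no detectable difference. *Sfrp2* had a normalized signal of 9091 (control) and 4451 (treated) on the female array, and of 6132 and 3643 on the male array. Both treated pools lay below both controls. The decrease was 2.04-fold in replicate 1 and 1.68-fold in replicate 2, a mean log2 fold change of -0.89 ± 0.0932 (SE, n = 2 arrays; 95% interval -1.13 to -0.66; limma adjusted p = 0.0434). The gap of -0.28 between the arrays was wider than that of 85.1% of the tested probes, with the larger decrease in the female pair, as for *Wif1*.

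*Sfrp4* had a normalized signal of 2598 (control) and 1838 (treated) for the female pools, and of 3476 and 2498 for the male pools. The treated pools lay below both controls, by a small margin between the control female and the treated male pool. Its log2 fold changes were -0.50 and -0.48, with a mean of -0.49 ± 0.0716 (SE, n = 2 arrays; 95% interval -0.67 to -0.31) and a limma adjusted p of 0.0819. The adjusted p fell to 0.0347 with another background correction (normexp) and to 0.0444 when dim probes were left out by a mean signal of 100, so its side of the threshold depended on the processing.

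*Frzb*, which encodes a WNT-binding protein first described in cartilage, had normalized signals of 220 and 192 in the control and treated female pools and 194 and 159 in the male pools. Both treated pools lay just below both controls. The mean log2 fold change of -0.24 ± 0.0738 (SE, n = 2 arrays; 95% interval -0.43 to -0.06) had a limma adjusted p of 0.249.

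*Sfrp1* had normalized signals of 1173 and 1157 in the control and treated female pools and of 1075 in both male pools. The treated and control signals of each array were nearly equal, and the ratios of single spots lay on both sides of 0 in each. The mean log2 fold change was -0.01 ± 0.0715 (SE, n = 2 arrays; limma adjusted p = 0.993), and the 95% interval ran from 0.877-fold to 1.13-fold of control. The mean decreases of *Sfrp2*, *Sfrp4* and *Frzb* lie outside this interval, but the interval of *Frzb* overlaps it. The genes were not tested against each other.

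The DKK proteins are the antagonists that act at the coreceptor. *Dkk1* was not well above background in any of the 4 pools and stood below the floor in each, so it was not tested and has no fold change. *Dkk2* had normalized signals of 952 (control) and 879 (treated) in females, and of 848 and 963 in males. The groups overlapped, and the treated pool was the lower one in the female and the higher one in the male pair. The mean log2 fold change was 0.03 ± 0.0961 (SE, n = 2 arrays; limma adjusted p = 0.972), with a 95% interval from 0.866-fold to 1.21-fold of control.

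*Dkk3* encodes a divergent member of the DKK family whose part in WNT signaling is less clear. Its normalized signal was 9354 in control and 7973 in treated females, and 7968 and 6951 in males, where 1 of the 4 spots of the probe was left out in replicate 2 because of an outlier mark. The treated pool was lower in each pair, and the groups overlapped slightly between the treated female and the control male pool. The mean log2 fold change was -0.21 ± 0.0718 (SE, n = 2 arrays; 95% interval -0.39 to -0.03; limma adjusted p = 0.287).

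**Figure D3:**
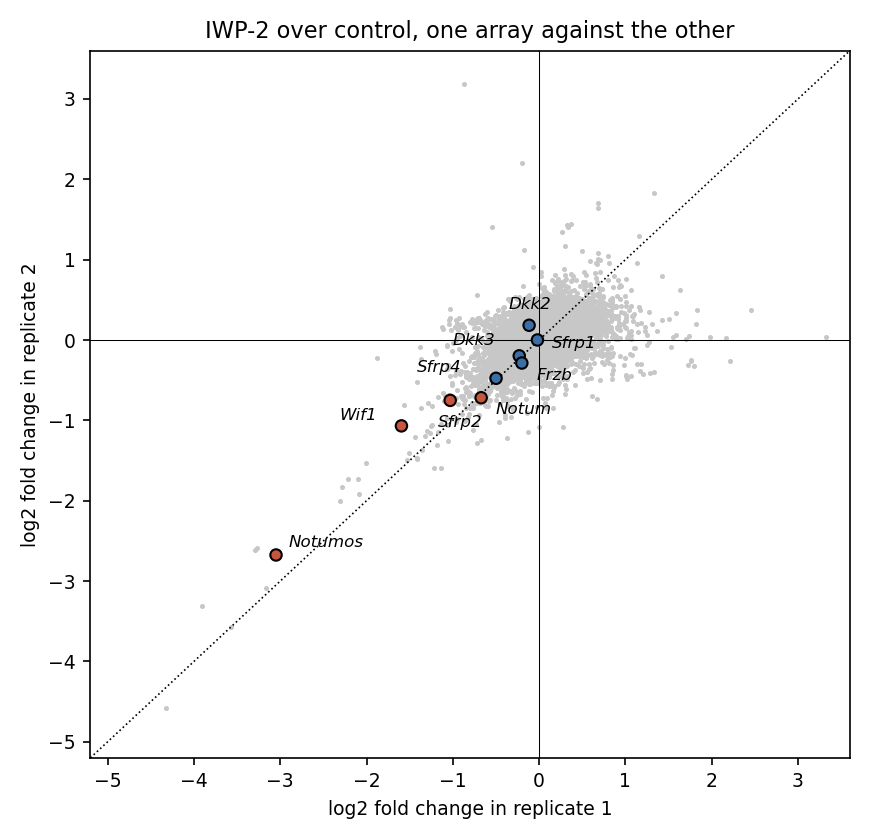
Log2 fold changes of IWP-2 over control in replicate 2 (vertical) against replicate 1 (horizontal) for all 23721 tested probes (gray) and the 9 tested secreted WNT antagonist genes (red where the limma adjusted p was under 0.05, blue otherwise); the dotted line marks equal values. *Notum* and *Sfrp4* lie close to the line, and *Wif1* and *Sfrp2* lie above it, with a larger decrease in replicate 1. The place of *Notumos* is set by the floor of 15, at which both of its treated signals stand.

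The calls of *Wif1*, *Notum* and *Sfrp2* were close to the threshold. They have 1 residual degree of freedom and rely on a variance drawn toward that of all tested probes. With a floor of 1 in place of 15, their fold changes stayed the same and their adjusted p rose to 0.110, 0.109 and 0.111 by limma, which left *Notumos* as the only member called (adjusted p = 0.00479). When the 4 channels were treated as separate samples, without the pairing of pools on an array, limma called 0 of the members (2 were lower at an unadjusted p under 0.05), with adjusted p of 0.464 for *Wif1*, 0.859 for *Notum*, 0.420 for *Notumos* and 0.679 for *Sfrp2*.

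The members were set beside other genes of the pathway. Of 10 further genes of antagonists that act outside the cell, 5 (*Sfrp5*, *Dkk4*, *Sost*, *Cer1* and *Draxin*) stood at the floor in all pools, and of the 5 tested none was called by limma (2 were lower and 0 higher at an unadjusted p under 0.05), with a median log2 fold change of -0.08. The lowest of these was *Apcdd1*, which encodes a membrane-bound WNT antagonist, at a log2 fold change of -0.54 (limma adjusted p = 0.0713).

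Some feedback genes whose products act inside the cell or at its membrane also fell. Of 11 tested, 6 were called lower and 0 higher by limma, with a median log2 fold change of -0.80. They were *Lgr5*, a receptor for R-spondins (-3.12, adjusted p = 0.000385), the transcription factor gene *Sp5* (-2.16, adjusted p = 0.00527), *Axin2*, a scaffold of the beta-catenin destruction complex (-1.91, adjusted p = 0.00831), *Tcf7* (-1.36, adjusted p = 0.00701), *Lef1* and *Rnf43*. The treated signals of *Lgr5* were also at or near the floor (15 and 18.6), so the sizes given for *Lgr5* and *Notumos* are limited by it and were not ranked. By size, the changes of *Wif1* and *Sfrp2* lay between those of *Tcf7* and *Lef1* (-0.87), and that of *Notum* was smaller than that of *Rnf43* (-0.80). These orders were not tested. A second, dimmer probe of *Axin2* (-0.32, limma adjusted p = 0.213) and of *Lef1* (-0.89, limma adjusted p = 0.0694) was not called, that of *Lgr5* stood at the floor, and that of *Tcf7* was called lower (-0.93, limma adjusted p = 0.0260). Of this list, the intensity filter passed 5 genes as lower, against 0.323% of all probes bright enough. Among these was *Nkd1* (-0.79 for its brighter probe, limma adjusted p = 0.0608), which limma did not call. This list, like the members, was drawn up with earlier results of these arrays known.

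Among the proteins that the antagonists act on or beside, no gene was called. This held for 10 tested WNT ligand genes (5 lower and 1 higher at an unadjusted p under 0.05), 10 frizzled receptor genes (2 lower, 1 higher), 3 coreceptor genes that DKK proteins bind (0 lower, 0 higher), 5 glypican genes (2 lower, 0 higher), 2 R-spondin genes (2 lower, 0 higher) and 6 genes of WNT lipidation and secretion (0 lower, 1 higher), each by limma. The median log2 fold changes were -0.16 for the ligands (range -0.80 to 0.50), -0.08 for the frizzled receptors, -0.04 for the coreceptors, -0.19 for the glypicans, -0.44 for the R-spondins and -0.03 for lipidation and secretion. *Porcn*, which encodes the enzyme that IWP-2 inhibits, had a log2 fold change of -0.04 ± 0.0732 (SE, n = 2 arrays; limma adjusted p = 0.940). The DKK coreceptor genes *Lrp5*, *Lrp6* and *Kremen1* had log2 fold changes of -0.04, 0.17 and -0.06.

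**Figure D4:**
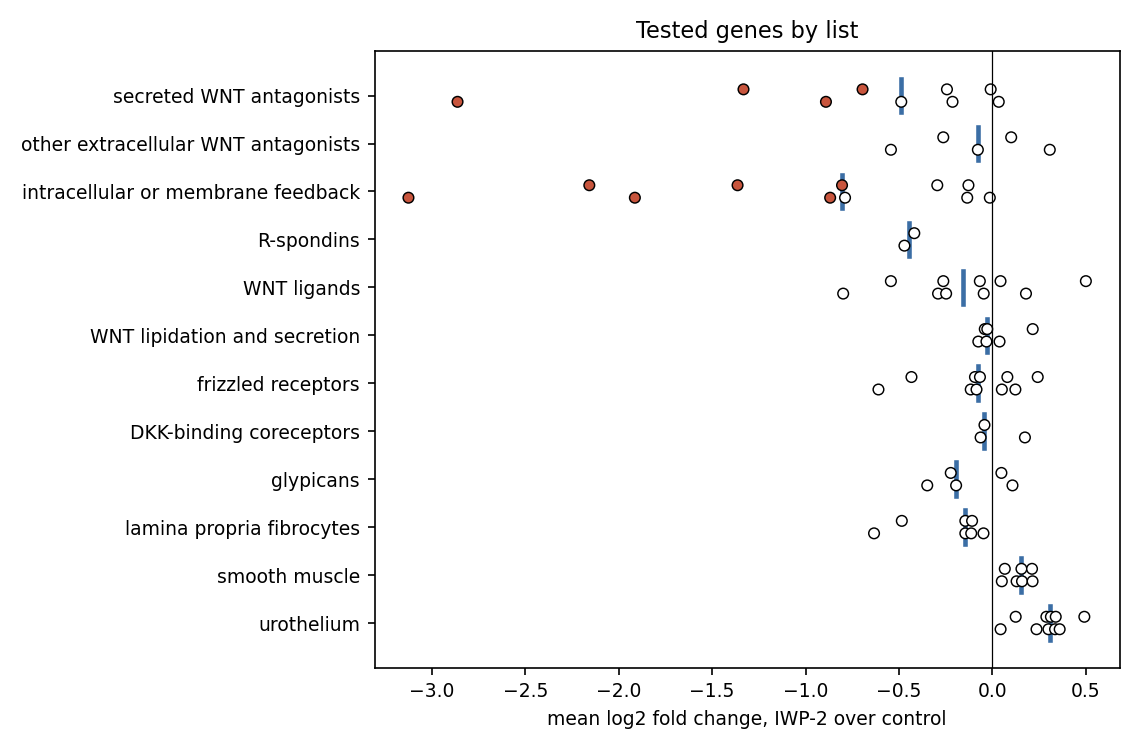
Mean log2 fold change, IWP-2 over control, of each tested gene in the secreted WNT antagonists, 8 further lists of WNT pathway genes and 3 lists of cell type markers; filled points had a limma adjusted p under 0.05 and bars are medians. Filled points occur in the secreted WNT antagonists (4) and the feedback genes that act inside the cell or at its membrane (6).

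RNA came from whole ureters, so a lower signal could reflect fewer cells of a type or less RNA per cell, which cannot be told apart. Markers of the layers of the ureter were well detected, and 0 of 6 kidney markers could be tested. None of 7 LP fibrocyte markers was called (2 lower and 0 higher at an unadjusted p under 0.05 by limma). Their median log2 fold change was -0.15. The 2 lower ones were *Aldh1a2* (-0.63, limma adjusted p = 0.0770) and *Thy1* (-0.48, limma adjusted p = 0.114). The paper reports LP-specific RNA of both at P0. The other markers (*Pdgfra*, *Col1a1*, *Col3a1*, *Lum* and *Dcn*), whose layer the paper does not give, lay between -0.15 and -0.05. These brighter genes set the median and most of the summed signal. The summed signal of all 7 was 121500 for control and 102000 for treated females, and 107300 and 105100 for males. For 7 smooth muscle markers the median was 0.16, with all means above 0 and sums of 98920 and 98940 in the female and 84440 and 98910 in the male pools. For 10 urothelial markers it was 0.31, with all means above 0, none called and 8 higher at an unadjusted p under 0.05 by limma, and the sums were 96410 and 126700 in the female and 117600 and 127600 in the male pools. Medians were -0.03 for 5 endothelial, 0.23 for 5 macrophage and -0.22 for 4 tested nerve and Schwann cell markers, with none called by limma (0 lower and 0 higher, 0 and 3, and 2 and 0 at an unadjusted p under 0.05). The part of these shifts in the lower signals of *Wif1*, *Notum*, *Notumos* and *Sfrp2* was not tested.

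The pattern nearest to that of *Wif1* across the 2 arrays, by Euclidean distance between log2 fold changes over 17811 genes, was that of *D630010B17Rik* (-1.43 and -1.21, distance 0.213), followed by *Itga4*, an integrin subunit gene (-1.56 and -0.81, distance 0.260), and *2700046A07Rik* (-1.32 and -1.20, distance 0.304). With 2 arrays, this likeness is a description only.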

How the data were processed

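RNA of control and IWP-2-treated ureter pools was compared on 2 two-colour arrays, with groups, sex and dyes taken per the labels. The deposited intensities are processed signals, background-subtracted and dye-normalized (linear and LOWESS) with Feature Extraction 12.2.0.7 per the file headers (10.7.3.1 in the submitters' processing notes). The authors' files also hold mean spot and local background intensities (input of the normexp alternative) and a log10 ratio, red over green (a check on directions). The deposited series table holds a score per probe and array, a signed fold change and its correlation with the ratios of the arrays, 0.939 and 0.918, settled its direction and scale. Both columns had a median of 1.0, and whether they were centred is not given in the sources used here. 

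Each array had 157716 spots for 39429 probes, 4 spots per probe. The 17263 control spots and the spots marked as outliers (3.32% and 3.22%) were left out, and 0 spots were saturated. Between 67.8% and 69.4% of probes were well above background in a pool. Signals were normalized within arrays by loess (span 0.3) in limma 3.58.1 (R 4.3.3), averaged over spots, floored at 15 and expressed as log2. Limma (lmFit, then eBayes) tested the ratios against 0, and p-values were adjusted by Benjamini-Hochberg over 23721 probes, those well above background on both arrays in at least 1 condition. Probes at the floor in both channels of an array were left out, a step added after a test on simulated data. The treated and control pool of a replicate share an array and are paired by construction. Both arrays were on 1 slide, and their number limits the precision. Sex-linked genes matched the labels.

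The members and gene lists were chosen with earlier results of these data known. The genes named are all members, the called genes of each list (at most the 4 with the largest change with values), the 3 genes nearest to *Wif1*, *Porcn* and *Axin2*. For list genes with several probes the brightest was used. *Lef1* and *Rnf43* with values, *Nkd1*, *Apcdd1*, *Aldh1a2*, *Thy1* and the other LP markers, the coreceptor genes and the genes listed at the floor were named after their values were seen. Sequences are from the array files and RefSeq (GRCm38.p6). The alternatives were other normalization, background correction, outlier marks, floors, filters, probe choice, thresholds, the unpaired fit, the series table and each replicate left out.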

Additional observations from a re-analysis of the deposited data

Results flagged for a closer look

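*Dkk2* was lower with IWP-2 in the female pools (log2 fold change -0.12) and higher in the male pools (0.18). *Sfrp1* likewise lay on either side of 0, at -0.019 in the female and 0.00051 in the male pools, and single spots lay on both sides of 0 in each array. The difference between the arrays was not tested for either gene, as each sex had 1 array, and sex and dye orientation cannot be told apart.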

How the results depend on the processing

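Of the values of single members under the alternatives, 92 kept their direction and side of the threshold (or, without a test, moved by less than the spread between arrays). Another 7 lost the call, 2 gained it (*Sfrp4*) and 1 with a test changed sign. The remaining 6 had no test and moved by more than that spread, changed sign or came to 0. The sign turned for *Sfrp1*, from -0.0095 to 0.032 with median centring in place of loess and to 0.00051 without replicate 1, and for *Dkk2*, from 0.03 to -0.12 without replicate 2. In the deposited series table *Notumos* was at -3.65 in place of -2.86, *Dkk3* at -0.14 in place of -0.21, and *Sfrp1* and *Dkk2* at 0. The number of probes called lower by limma, 90, became 180 with normexp and 48 with a floor of 1. The number called higher, 28, became 93 with normexp, 6 with a floor of 1, 17 without a further loess and 43 with a mean signal above 100 as the filter. Higher calls made up 23.7% of all calls, against 34.1% with normexp and 11.1% with a floor of 1. Of the 4 members called, the floor of 1 left 1. Without the replicate block, that is without pairing the pools of an array, limma called 0 probes lower, 0 higher and 0 members (1162, 911 and 2 at an unadjusted p under 0.05). The intensity filter passed 58 probes as lower and 14 as higher, 20 and 0 at 2-fold in place of 1.5-fold, and 87 to 181 and 32 to 197 with either replicate left out. The 3 members that passed it became 1 at 2-fold. Limma could not be run on 1 array, and over both left-out replicates the log2 fold change of *Wif1* ran from -1.60 to -1.07. The cause of these changes was not tested. With 2 arrays, intervals are wide for small changes, and signals near the floor, such as those of *Notumos* and *Dkk1*, have no order.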
